A study of Mus musculus with 24 samples.

Results

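The E2F and RB family consists of the transcription factors and pocket proteins that gate entry into S phase. The members were named by symbol: E2f1, E2f2, E2f3, E2f4, E2f5, E2f6, E2f7, E2f8, Rb1 and Rbl1, 10 of the 43280 gene symbols in the deposited count table, and all 10 were found there. RNA was sequenced from 24 libraries of crypt cells of the small intestine of 6 male C57BL/6 mice that carried the Lgr5-EGFP reporter; the labels call them littermates, although their ages differ. The 3 treated mice received NRG1, neuregulin 1, an EGF-family ligand of ERBB3 and ERBB4, by intraperitoneal injection at 7.5 µg every 12 h for 5 days. The other 3 mice received PBS, and tissue was taken on day 6. Under either treatment, mouse 3 was 11 weeks of age and the others 15 weeks.

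Each mouse gave 1 library from each of 4 sorted gates, so the 3 libraries of every group came from separate animals. Blood and endothelial cells were gated out by CD45 and CD31, and dead cells by propidium iodide. The gates were Lgr5high with low CD24, taken as crypt base columnar stem cells; Lgr5med with low CD24, taken as immediate progenitors; Lgr5low with low CD24, taken as later progenitors; and Lgr5neg without CD24, taken as differentiated cells. EGFP is a stable protein, so a gate follows reporter brightness, not a cell's present Lgr5 transcription. All groups, PBS included, carried the same reporter allele.

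In background terms, pocket proteins such as RB1 and RBL1 bind E2F factors in resting cells and early G1 and keep their target genes silent. Cyclin D with CDK4 or CDK6, and then cyclin E with CDK2, phosphorylate the pocket proteins, which frees the activator E2Fs (E2F1, E2F2 and E2F3) to switch on genes for DNA replication. E2F4 and E2F5 act mainly as repressors with pocket proteins, E2F6 represses without them, and E2F7 and E2F8 are atypical repressors that bind DNA without a DP partner. In the intestine, cells divide rapidly in the crypt and leave the cycle as they move towards the villus.

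Total counts per library ran from 11176264 to 23343499, of which 37.6% to 62.4% came from the 2 mitochondrial ribosomal RNAs, and the 10 members together took 2638 to 9557 counts. Levels are given as CPM, counts scaled to library size, after TMM scaling over all 24 libraries, and in CPM per kilobase of exon wherever different genes are compared. Lgr5 averaged 178 ± 45.6, 54.5 ± 19.6, 13.2 ± 7.0 and 1.43 ± 0.139 CPM (SD, n = 3 each) in Lgr5high, Lgr5med, Lgr5low and Lgr5neg libraries of NRG1 mice. The same 4 gates of PBS mice averaged 171 ± 62.0, 28.9 ± 19.97, 8.39 ± 2.41 and 1.30 ± 0.286 CPM, so Lgr5 followed the gates under both treatments. In these bulk samples, fewer cells that express a gene and less of its RNA per cell cannot be told apart. Reads of mt-Rnr1 per 100 of mt-Rnr2 were 38.0 to 54.2 in NRG1 libraries and 18.1 to 42.9 in PBS libraries, where the highest PBS value was the single one inside the NRG1 range; a difference in library preparation and the NRG1 treatment cannot be told apart here. Within Lgr5high the treatments overlapped in this ratio, with PBS mouse 3 at 42.9 above NRG1 mice 2 and 3 (39.9 and 38.6). Within each of the other gates they did not overlap. Every comparison of NRG1 with PBS carries this limit. Member results without mt-Rnr1 and mt-Rnr2 are given with the other processing alternatives.

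On GRCm38, the annotated genes lie apart: E2f1 on chr2:154559407-154569892 (minus strand), E2f2 on chr4:136172394-136196057 (plus), E2f3 on chr13:29906575-29986063 (minus), E2f7 on chr10:110745439-110787384 (plus), E2f8 on chr7:48866429-48881596 (minus), Rb1 on chr14:73183673-73325822 (minus) and Rbl1 on chr2:157145893-157204534 (minus). All are protein-coding, and counts were taken over exons. RefSeq promoter windows, 250 bases before to 50 after a gene's start on GRCm38.p6, were found for 7 members in 9 windows: E2f1, E2f2, E2f3, E2f6, E2f7, E2f8 and Rbl1. The 120 bases before the start are shown first for the 3 activators, which were the members called under NRG1 in Lgr5high, and for E2f8, which did not pass that test in any gate. Capitals mark E2F letters (TTTCCCGC, TTTCGCGC, TTTGCCGC or TTTGGCGC) and the CHR letters TTTGAA of genes bound by the DREAM complex, on either strand, with no overlap between the motifs.
E2f1, chr2:154569427-154569546, minus strand: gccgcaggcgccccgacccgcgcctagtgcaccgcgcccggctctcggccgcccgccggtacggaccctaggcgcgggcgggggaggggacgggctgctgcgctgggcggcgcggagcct
E2f2, chr4:136172154-136172273, plus strand: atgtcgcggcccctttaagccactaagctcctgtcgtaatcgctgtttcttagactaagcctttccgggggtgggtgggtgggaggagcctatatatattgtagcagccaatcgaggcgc
E2f3, chr13:29986064-29986183, minus strand: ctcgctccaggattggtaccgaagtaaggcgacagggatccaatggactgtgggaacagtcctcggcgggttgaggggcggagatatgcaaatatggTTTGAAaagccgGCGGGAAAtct
E2f8, chr7:48881597-48881716, minus strand: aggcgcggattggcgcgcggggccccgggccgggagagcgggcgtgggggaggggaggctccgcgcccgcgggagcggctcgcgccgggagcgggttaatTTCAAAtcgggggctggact

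The 30-base stretches around the E2F letters of the windows not yet shown were as follows, with the E2F letters in capitals.
E2f2, chr4:136172294-136172323, plus strand: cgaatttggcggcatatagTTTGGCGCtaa
E2f7, chr10:110745230-110745259, plus strand: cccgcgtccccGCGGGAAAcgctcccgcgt
Rbl1, chr2:157204534-157204563, minus strand: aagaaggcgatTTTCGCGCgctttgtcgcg
E2F letters were thus present in 4 of 9 member windows, those of E2f2, E2f3, E2f7 and Rbl1, against 2.26% of all 32851 RefSeq promoter windows of this length. CHR letters were in 3 of the 9, in E2f3, E2f8 and the second E2f2 window, against 17.9% of all windows. The E2f1 and E2f6 windows held neither. The E2f1 window, chr2:154569377-154569676, lay inside the gene span given above, so sequence before the start of that span was not searched. Per gene, E2F letters were found for 44.8% of the 29 matched G1/S targets and 4.17% of the 24 matched G2/M targets, and CHR letters for 13.8% and 75.0% of them. Over all 27025 genes with a promoter window, E2F letters were found for 2.6% and CHR letters for 20.2%. A match here is a run of letters, not a bound site, and these windows say nothing of sequence outside them.

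Along the 4 gates of PBS mice, the members fell into separate courses. Per kilobase of exon, E2f4 was the highest in Lgr5high PBS libraries at 16.7 ± 1.24 CPM, followed by E2f8 at 11.5 ± 0.617 CPM, and the library ranges of these neighbours did not overlap. E2f2, E2f3, E2f1, E2f5 and Rbl1 came next between 6.63 and 4.31 CPM per kilobase, each overlapping its neighbour in range. Rb1, E2f6 and E2f7 were the lowest at 3.32 ± 0.0789, 3.21 ± 0.597 and 2.14 ± 0.0586 CPM per kilobase, with E2f7 below E2f6 in all libraries. In Lgr5neg PBS libraries the order was another: E2f2 at 15.4 ± 4.62, Rb1 at 15.2 ± 1.68 and E2f4 at 13.3 ± 1.77 CPM per kilobase overlapped at the top, and E2f1 and E2f7 were last at 0.140 ± 0.0935 and 0.0953 ± 0.0523 (SD, n = 3 each).

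**Figure D1:**
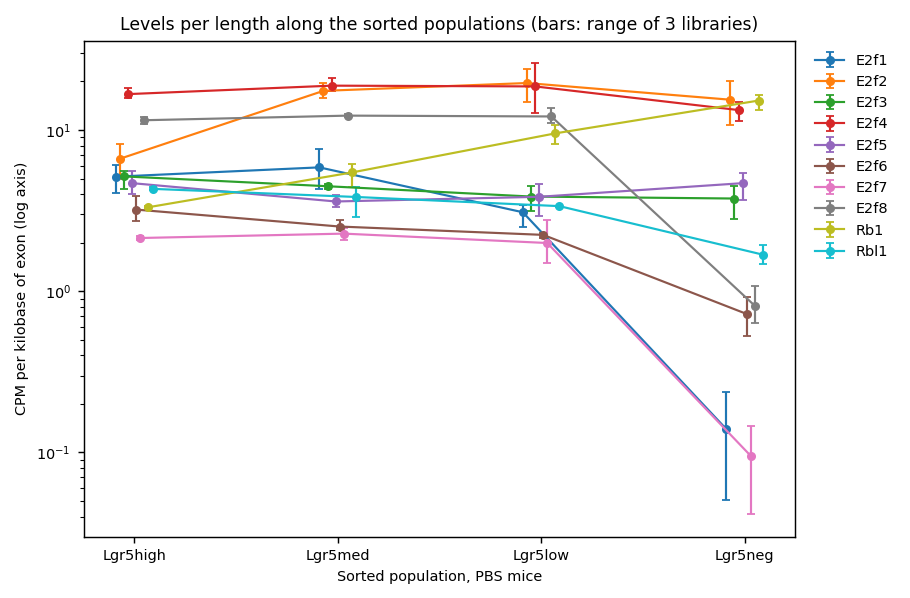
Mean level of each member in CPM per kilobase of exon (vertical log axis) in the 4 sorted gates of PBS mice (horizontal axis); bars span the lowest to the highest of 3 libraries. Rb1 climbs to 15.2 in Lgr5neg, E2f4 stays between 13.3 and 18.8, and E2f1, E2f7 and E2f8 drop at Lgr5neg.

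Of the activators, E2f1 had 16.6, 19.1 and 12.9 CPM in Lgr5high PBS mice 1 to 3, 23.97, 13.6 and 17.9 CPM in Lgr5med, 10.6, 10.8 and 7.84 CPM in Lgr5low, and 0.749, 0.161 and 0.411 CPM in Lgr5neg. The Lgr5neg values rested on 10, 2 and 5 counts, around the floor of 3 counts, and lay below every library of the other gates. E2f1 was 1.89-fold higher in Lgr5med than in Lgr5low (log2 0.92 ± 0.238 SE, adjusted p = 0.0212 by edgeR's quasi-likelihood test with Benjamini-Hochberg adjustment), in a comparison where 7.59% of 14203 genes were called and 2 of 10 members. That call was lost without Lgr5med PBS mouse 1 (log2 0.69, adjusted p = 0.169), without Lgr5med PBS mouse 3 (0.0508), without Lgr5low PBS mouse 3 (0.104) and among the 15-week-old mice alone (0.231). E2f1 was 21.4-fold higher in Lgr5low than in Lgr5neg (adjusted p = 7.57e-09), where 55.8% of all genes were called and 7 of 10 members.

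E2f2 was lowest in the stem cell gate. It had 32.7, 40.2 and 24.2 CPM in Lgr5high PBS libraries, 77.1, 95.4 and 83.5 CPM in Lgr5med, 96.9, 117 and 72.7 CPM in Lgr5low and 75.2, 97.7 and 52.6 CPM in Lgr5neg. All 3 Lgr5high libraries lay below all others, and the other 3 gates overlapped. The fold of Lgr5high to Lgr5med was log2 -1.39 ± 0.229 (SE, adjusted p = 0.00140), and E2f2 and Rb1 were the 2 of 10 members called there, against 9.16% of all genes. Between Lgr5low and Lgr5neg the log2 difference was 0.33 (adjusted p = 0.226), which passed the test with mice as a block (adjusted p = 0.0330). It was called in 3 of 19 alternatives, with an adjusted p up to 0.578.

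Markers of other cell types also differed between these gates. The 6 goblet markers, all with counts in every group, summed to 400 to 1906 CPM in Lgr5high PBS libraries, 5770 to 16174 CPM in Lgr5med, 14394 to 26254 CPM in Lgr5low and 4848 to 6852 CPM in Lgr5neg. The 10 immune markers summed to 3.08 to 4.26 CPM in Lgr5high PBS libraries and to 84.5 to 173 CPM in Lgr5neg, with Lgr5med and Lgr5low at most at 4.61 CPM. The 6 enteroendocrine markers summed to 29.4 to 152 CPM in Lgr5high PBS libraries, 257 to 643 CPM in Lgr5med, 307 to 1232 CPM in Lgr5low and 73.5 to 225 CPM in Lgr5neg. Of the 5 mesenchymal markers, Col1a2, Col3a1 and Pdgfra were at 0 in Lgr5neg PBS libraries, and the 5 summed to at most 0.181 CPM in any PBS library. The part of goblet, immune and enteroendocrine cells in the E2f2 levels was not tested.

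E2f3 varied little, with 23.3, 30.3 and 30.3 CPM in Lgr5high PBS libraries and 24.3, 21.6 and 15.2 CPM in Lgr5neg. The groups overlapped, and the adjusted p of 0.0352 for the log2 difference of 0.44 was lost in 4 of 19 alternatives, to as much as 0.351 among the 15-week-old mice.

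Among the repressors, E2f4 had 39.6, 44.4 and 38.8 CPM in Lgr5high PBS libraries and 36.3, 33.6 and 27.8 CPM in Lgr5neg, a log2 difference of 0.32 ± 0.194 (adjusted p = 0.157). It was called higher in Lgr5low than in Lgr5neg (log2 0.48, adjusted p = 0.0444), but that rested on Lgr5low PBS mouse 1 at 63.5 CPM; without it the log2 difference was 0.19 (adjusted p = 0.350), and 11 of 19 alternatives kept the call. E2f5, with 7.93, 7.15 and 9.93 CPM in Lgr5high and 9.58, 8.85 and 6.58 CPM in Lgr5neg of PBS mice, passed no test between gates. E2f6 had 15.4, 17.1 and 21.9 CPM in Lgr5high PBS libraries and 2.99, 4.10 and 5.18 CPM in Lgr5neg, with no overlap, and was 4.41-fold higher in Lgr5high (adjusted p = 2.35e-08).

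The atypical repressors E2f7 and E2f8 kept their level through the 3 Lgr5-positive gates and then dropped. E2f8 had 63.0, 59.0 and 65.7 CPM in Lgr5high PBS libraries, 68.2, 65.4 and 66.8 CPM in Lgr5med, 75.0, 63.2 and 59.8 CPM in Lgr5low and 3.97, 3.46 and 5.84 CPM in Lgr5neg. The 3 Lgr5-positive gates overlapped, and E2f8 was 14.8-fold higher in Lgr5low than in Lgr5neg (log2 3.89 ± 0.177 SE, adjusted p = 3.15e-12). E2f7 had 18.7 to 19.8 CPM in Lgr5high and 0.374 to 1.32 CPM in Lgr5neg of PBS mice, 22.4-fold higher in Lgr5high (adjusted p = 2.12e-10), with 5, 11 and 16 counts behind the Lgr5neg values. The proliferation marker Mki67 averaged 916 ± 67.2 CPM in Lgr5high and 35.7 ± 12.1 CPM in Lgr5neg of PBS mice (SD, n = 3 each).

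The pocket proteins ran in opposite directions. Rb1, the retinoblastoma protein gene, had 19.5, 20.01 and 20.4 CPM in Lgr5high PBS libraries, 26.7, 37.2 and 34.4 CPM in Lgr5med, 64.2, 58.5 and 49.1 CPM in Lgr5low and 98.4, 79.96 and 96.3 CPM in Lgr5neg. No 2 neighbouring gates overlapped, and each step passed the test: log2 -0.71 ± 0.148 for Lgr5high against Lgr5med (adjusted p = 0.00427), -0.81 ± 0.147 for Lgr5med against Lgr5low (0.00194) and -0.69 ± 0.146 for Lgr5low against Lgr5neg (5.05e-04). The step from Lgr5high to Lgr5med alone lost its call once, among the 15-week-old mice (log2 -0.69, adjusted p = 0.118). The 10 enterocyte markers ran in the same direction as Rb1, summing to 997 to 1498 CPM in Lgr5high PBS libraries, 2056 to 2457 CPM in Lgr5med, 4849 to 7440 CPM in Lgr5low and 43429 to 73488 CPM in Lgr5neg. Of these 10, 5, 10 and 10 were called at the 3 steps, lower in the gate with more Lgr5 each time, and their part in the Rb1 levels was not tested. Rbl1, which encodes p107, had 26.5, 25.7 and 25.3 CPM in Lgr5high and 11.7, 9.73 and 8.88 CPM in Lgr5neg of PBS mice, 2.54-fold higher in Lgr5high (adjusted p = 1.09e-06). Over this widest comparison, Lgr5high against Lgr5neg, 8 of 10 members were called and 67.4% of all genes. Rb1 shares 6.78% of its exon bases with Lpar6 and 8.11% with Rcbtb2, both on the other strand, and E2f8 shares 11.2% with Gm2788; whether the counting used strand is not given in the sources used here, so reads of those bases are uncertain.

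NRG1 against PBS within each gate compared bulk RNA levels of cells sorted by the same gate, whose cell make-up may differ between the treatments. Most of the family was not called for NRG1. In Lgr5high 3 of 10 members were called lower, the activators E2f1, E2f2 and E2f3, where 7.33% of 13322 genes were called and 4.15% were called lower. In Lgr5med 3 of 10 were lower, E2f1, E2f2 and E2f7, against 9.55% of 13394 genes called and 5.79% called lower. No member was called in Lgr5low, against 0.443% of 13326 genes, or among the 8 members tested in Lgr5neg, against 0.328% of 11908 genes. In those last 2 gates edgeR gave 4 members and 1 member at an unadjusted p under 0.05. Over all genes, 1796 of 13326 and 1257 of 11908 were under it. DESeq2 called 2 members and 0 there, against 306 and 197 genes. The Lgr5low libraries of NRG1 mice 1 and 3 were the smallest of the series, at 11176264 and 12549951 counts. They held 71 and 42 E2f1 counts. The part of depth in the Lgr5low calls was not tested.

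**Figure D2:**
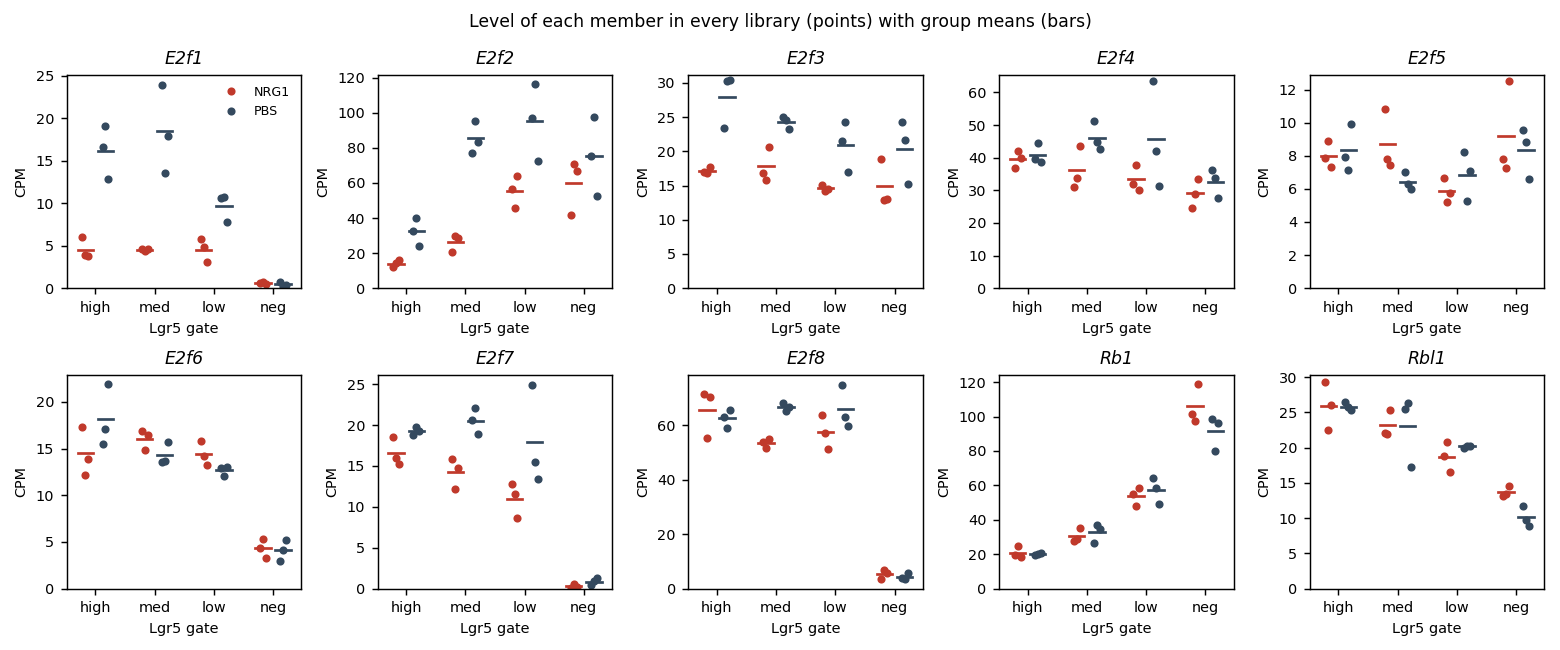
CPM (vertical axes, each from 0) of each member in every library (points) of NRG1 (left, red) and PBS (right, dark) mice in the 4 Lgr5 gates (horizontal axes); horizontal bars are the means of 3 libraries. E2f1 in NRG1 libraries of the 3 Lgr5-positive gates lies between 3.05 and 6.04 CPM, below every PBS library of those gates.

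E2f1 had 6.04, 3.88 and 3.75 CPM in Lgr5high libraries of NRG1 mice 1 to 3, against 16.6, 19.1 and 12.9 CPM in PBS mice. In Lgr5med it had 4.64, 4.36 and 4.62 CPM in NRG1 mice, against 23.97, 13.6 and 17.9 CPM in PBS mice. In Lgr5low it had 5.75, 4.83 and 3.05 CPM in NRG1 mice, against 10.6, 10.8 and 7.84 CPM in PBS mice. The groups did not overlap in any of these 3 gates, and the mean of the NRG1 libraries was nearly the same in each (4.56, 4.54 and 4.54 CPM), whereas the PBS means were 16.2, 18.5 and 9.74 CPM. The change was log2 -1.82 ± 0.211 (SE) in Lgr5high (adjusted p = 2.28e-04) and -2.01 ± 0.210 in Lgr5med (9.67e-05), that is 3.52-fold and 4.01-fold lower, and both calls held in 13 of 13 alternatives. In Lgr5low it was -1.09 ± 0.258 (adjusted p = 0.0896), which passed the test with mouse number as a block (log2 -1.12, adjusted p = 0.00637). It was called in 4 of 13 alternatives, with an adjusted p up to 0.388. In Lgr5neg E2f1 had 7, 12 and 6 counts in NRG1 mice and 10, 2 and 5 counts in PBS mice, too few to pass the low-count filter.

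E2f2 had 11.9, 14.2 and 15.95 CPM in Lgr5high libraries of NRG1 mice, against 32.7, 40.2 and 24.2 CPM in PBS mice. In Lgr5med it had 20.7, 29.6 and 28.8 CPM in NRG1 mice, against 77.1, 95.4 and 83.5 CPM in PBS mice. In Lgr5low it had 56.4, 46.0 and 63.9 CPM in NRG1 mice, against 96.9, 117 and 72.7 CPM in PBS mice. The groups were apart in each of these gates but overlapped in Lgr5neg, with 41.9, 71.0 and 66.9 CPM in NRG1 mice and 75.2, 97.7 and 52.6 CPM in PBS mice. The change was log2 -1.19 ± 0.177 (adjusted p = 0.00119) in Lgr5high and -1.67 ± 0.149 (5.64e-05) in Lgr5med, both kept in 13 of 13 alternatives. It was -0.78 ± 0.179 (adjusted p = 0.0805) in Lgr5low and -0.32 ± 0.247 (0.707) in Lgr5neg. The Lgr5low change was called in 4 of 13 alternatives, among them the block (0.0129), with an adjusted p up to 0.450.

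Goblet markers beside these values summed to 4720 to 11009 CPM in Lgr5med libraries of NRG1 mice and 5770 to 16174 CPM in PBS mice, and to 406 to 958 CPM in Lgr5high libraries of NRG1 mice and 400 to 1906 CPM in PBS mice. The 8 stem cell markers summed to 1469 to 1897 CPM in Lgr5med of NRG1 mice and 796 to 1600 CPM in PBS mice, and the 10 enterocyte markers to 1070 to 1724 CPM and 2056 to 2457 CPM. The 6 Paneth markers summed to 1004 to 1636 CPM in Lgr5high libraries of NRG1 mice and 1530 to 2546 CPM in PBS mice, and 2 of the 6 were called lower there (median log2 change -0.67). None of the goblet, stem cell or enteroendocrine markers was called in Lgr5high or Lgr5med by edgeR. The median log2 changes in these 2 gates were -1.73 (5 tested) and -1.01 (6 tested) for enteroendocrine markers. For goblet markers they were -0.76 and -0.82, with none of the 6 higher in either gate. For stem cell markers they were 0.02 and 0.42, with 5 and 7 of the 8 higher. In Lgr5med 4 of 10 enterocyte markers were called lower. In Lgr5low all 8 stem cell markers were higher in NRG1 mice (median log2 change 0.48, 1 called by edgeR). All 10 enterocyte markers were lower there (median -0.72, 0 called). The part of these cell types in the fall of E2f1, E2f2 and E2f3 was not tested.

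E2f3 had 16.9, 16.8 and 17.7 CPM in Lgr5high libraries of NRG1 mice, against 23.3, 30.3 and 30.3 CPM in PBS mice, with no overlap. Its change of log2 -0.69 ± 0.137 (adjusted p = 0.00583) kept its call in 13 of 13 alternatives. In Lgr5med the groups were also apart, 15.8 to 20.7 CPM in NRG1 mice against 23.3 to 25.1 CPM in PBS mice. The change there was log2 -0.43 ± 0.144 (adjusted p = 0.0738, and 0.0325 with the block), called in 2 of 13 alternatives (adjusted p up to 0.242). In Lgr5low and Lgr5neg the log2 differences were -0.52 (adjusted p = 0.224) and -0.44 (0.518).

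**Figure D3:**
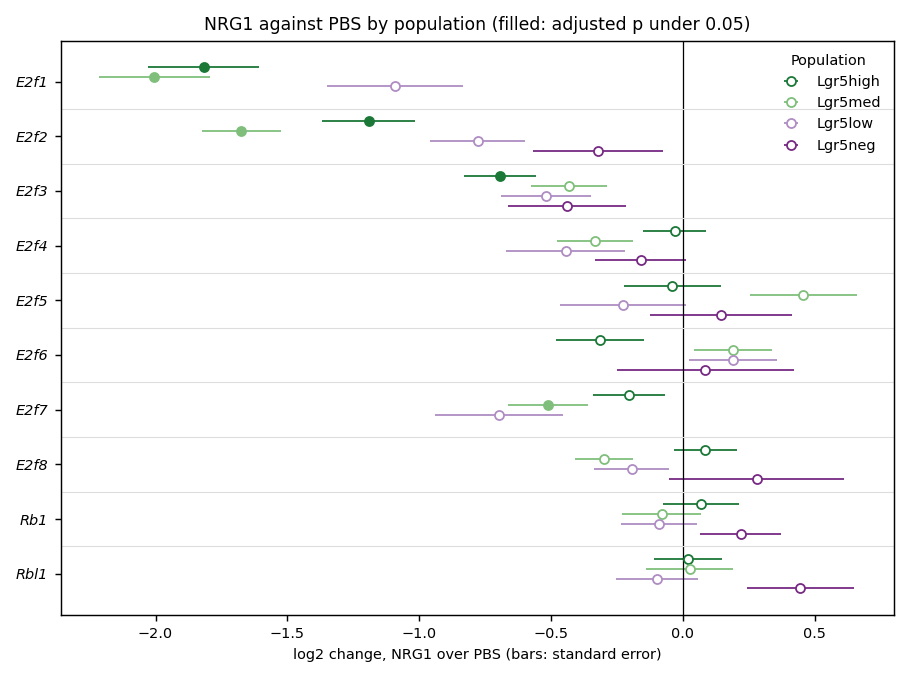
Log2 change of each member, NRG1 over PBS (horizontal axis), by gate (colour), with its standard error; filled points passed an adjusted p of 0.05 in edgeR's quasi-likelihood test. E2f1 and E2f7 have no Lgr5neg point because their counts did not pass the low-count filter.

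Of the repressors E2f4, E2f5 and E2f6, none was called in any gate. E2f4, the most abundant member per kilobase in 5 of 8 groups, had 36.8, 42.0 and 40.1 CPM in Lgr5high libraries of NRG1 mice, against 39.6, 44.4 and 38.8 CPM in PBS mice, a log2 difference of -0.03 ± 0.118. Its Lgr5med difference was -0.33 ± 0.144 (adjusted p = 0.163). Of 13 alternatives 1 called it, that without Lgr5med NRG1 mouse 3 (0.0309), and the adjusted p ran up to 0.378. E2f5 had 10.8, 7.82 and 7.44 CPM in Lgr5med libraries of NRG1 mice, against 7.004, 6.28 and 5.97 CPM in PBS mice, groups that did not overlap but whose log2 difference of 0.46 ± 0.203 did not pass (adjusted p = 0.175). E2f6 differed by log2 -0.31 ± 0.167 in Lgr5high and 0.19 ± 0.147 in Lgr5med, neither past the test.

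Of the atypical repressors, E2f7 was called in 1 gate and E2f8 in none. E2f7 had 15.8, 12.1 and 14.7 CPM in Lgr5med libraries of NRG1 mice, against 20.6, 22.1 and 18.8 CPM in PBS mice. These groups were apart, but the call (log2 -0.51 ± 0.152, adjusted p = 0.0486) sat at the threshold and was kept in 5 of 13 alternatives. It was lost without Lgr5med NRG1 mouse 2 (adjusted p = 0.187) or 3 (0.0586), and without Lgr5med PBS mouse 1 (0.0909), 2 (0.191) or 3 (0.101). It was also lost among the 15-week-old mice (0.1003), without the mitochondrial rRNA genes (0.0517) and with all 24 libraries in 1 model (0.168). In Lgr5low E2f7 differed by log2 -0.70 ± 0.242 (adjusted p = 0.239, and 0.0395 with the block), called in 2 of 13 alternatives (adjusted p up to 0.628).

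E2f8 had 71.5, 55.4 and 70.5 CPM in Lgr5high libraries of NRG1 mice, against 63.0, 59.0 and 65.7 CPM in PBS mice, which overlapped (log2 0.09 ± 0.120, adjusted p = 0.727). In Lgr5med it had 54.0, 51.6 and 55.1 CPM in NRG1 mice, against 68.2, 65.4 and 66.8 CPM in PBS mice, groups that were apart at log2 -0.30 ± 0.109 (adjusted p = 0.0990). The ratio of E2f8, a repressor, to E2f1, an activator, was taken within each library. For each E2f1 count there were 11.8, 14.3 and 18.8 counts of E2f8 in Lgr5high libraries of NRG1 mice, against 3.80, 3.09 and 5.10 in PBS mice. In Lgr5med there were 11.6, 11.8 and 11.9 in NRG1 mice, against 2.84, 4.82 and 3.73 in PBS mice, and in Lgr5low 11.1, 11.9 and 16.8 in NRG1 mice, against 7.09, 5.85 and 7.63 in PBS mice. The ratio needs no scaling between libraries, and its groups did not overlap in the 3 Lgr5-positive gates; it is given as a description, since E2f1 itself was called.

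The pocket protein genes were not called for NRG1 in any gate. Rb1 had 19.5, 24.5 and 18.1 CPM in Lgr5high libraries of NRG1 mice, against 19.5, 20.01 and 20.4 CPM in PBS mice (log2 0.07 ± 0.143), and its differences in the other gates lay between -0.09 and 0.22. Rbl1 differed by log2 0.02 ± 0.129 in Lgr5high, 0.03 ± 0.166 in Lgr5med and -0.10 ± 0.155 in Lgr5low. In Lgr5neg Rbl1 had 13.1, 13.4 and 14.5 CPM in NRG1 mice, against 11.7, 9.73 and 8.88 CPM in PBS mice, apart but at an adjusted p of 0.458 (log2 0.45 ± 0.202). The third pocket protein gene, Rbl2 (p130), is no member and was looked at after its values were seen. By edgeR it was log2 0.51 ± 0.116 higher in Lgr5high (adjusted p = 0.0142) and 0.51 ± 0.122 higher in Lgr5med (0.0193). Those calls were lost to as much as 0.0617 and 0.109 when 1 library was left out. The Lgr5high call was also lost among the 15-week-old mice (0.0601). Rbl2 was not called in Lgr5low (log2 0.46 ± 0.137, adjusted p = 0.172) or Lgr5neg (0.43 ± 0.158, 0.332, and 0.0385 with the block).

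Counted over the members, NRG1 and PBS libraries did not overlap for 4 in Lgr5high (27% of all genes), 6 in Lgr5med (30.5%), 5 in Lgr5low (18.7%) and 1 of 10 in Lgr5neg (15.9%). E2f1, E2f2, E2f3 and E2f7 were lower in every NRG1 library than in any PBS library of the same gate in the 3 Lgr5-positive gates. The share of all genes that did so in these 3 gates together was not counted. Because the gates came from the same mice, these separations are not independent of each other. E2f7 was called in Lgr5med alone, and its change in Lgr5high was log2 -0.20 ± 0.136 (SE, adjusted p = 0.407 by edgeR).

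Whether the NRG1 change itself differed between gates was tested over all 24 libraries. The log2 change in Lgr5high minus that in Lgr5med was 0.20 ± 0.360 (SE) for E2f1, 0.49 ± 0.330 for E2f2 and -0.26 ± 0.244 for E2f3, none past the test. No member was called for Lgr5high minus Lgr5med or Lgr5high minus Lgr5low (0% of 15045 genes called in each). There edgeR gave 0 members at an unadjusted p under 0.05, against 576 and 676 of all genes, and DESeq2 called 0. For Lgr5high minus Lgr5neg, 0 members were called against 0.0532% of all genes. At an unadjusted p under 0.05 were 3 of 10 members, against 1303 of 15045 genes. The E2f1 difference there was log2 -2.28 ± 0.578 (adjusted p = 0.155, and 0.0320 in DESeq2, which called 1 member), with few E2f1 counts in Lgr5neg. By the main test, no member's change in Lgr5high was thus shown to differ from its change in another gate; changes in Lgr5med were not tested against those in Lgr5low or Lgr5neg.

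The genes around the family were read from lists chosen for their roles, but with earlier results of these data known, so their counts are descriptions. For list counts at an unadjusted p under 0.05 in Lgr5low and Lgr5neg, the counts over all genes are those given with the members. Of 13 cyclins and CDKs, 2 were called higher and 4 lower in Lgr5high, with a median log2 change of -0.24 against 0.01 over all genes. Ccnd2, a D-type cyclin that starts pocket protein phosphorylation, averaged 120 CPM in NRG1 and 263 CPM in PBS libraries of Lgr5high (log2 -1.12 ± 0.134, adjusted p = 2.28e-04), and Ccne1, the cyclin partner of CDK2, 1.15 and 3.67 CPM (-1.66 ± 0.309, 0.00412). Called higher were Ccnf, a ubiquitin ligase subunit (log2 0.72), and Ccna2, the S and G2 cyclin (0.50). In Lgr5med 3 of 13 were lower and none higher, with Ccnd2 at log2 -1.04 ± 0.157 (adjusted p = 0.00163) and Ccnd1 at -0.66 ± 0.132 (0.00800), and in Lgr5low Ccnd2 alone was called (log2 -0.84, adjusted p = 0.0419). None of the 12 tested in Lgr5neg was called by edgeR (1 at an unadjusted p under 0.05, 0 by DESeq2).

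Of 6 CDK inhibitors, Cdkn1b, which encodes p27, was higher in Lgr5high (log2 0.54 ± 0.134, adjusted p = 0.0211) and in Lgr5med (0.68 ± 0.123, 0.00476). Cdkn2b and Cdkn2d, inhibitors of CDK4 and CDK6, were lower in Lgr5med (log2 -1.18 ± 0.263 and -0.93 ± 0.220), and edgeR called no inhibitor in Lgr5low (2 at an unadjusted p under 0.05, 1 by DESeq2) or Lgr5neg (2 and 0). Of 11 dimerisation partners and MuvB genes, Foxm1, the mitotic activator, was higher (log2 0.63 ± 0.120, adjusted p = 0.00494) and Mybl2, which joins MuvB in S phase, lower (-0.61 ± 0.173, 0.0402) in Lgr5high. Rbbp4, a histone-binding MuvB subunit, was higher in Lgr5med (log2 0.70 ± 0.143), and edgeR called none in Lgr5low (3 at an unadjusted p under 0.05, 0 by DESeq2) or Lgr5neg (1 and 0).

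The targets split by phase. Of 36 G1/S genes, the class switched on by activator E2Fs, 19 were called lower and 0 higher in Lgr5high (median log2 change -0.55), 8 and 0 in Lgr5med (-0.39; 18 lower with the block), 1 and 0 in Lgr5low (-0.16; 4 lower with the block), and none of 33 tested in Lgr5neg (0.25; 0 at an unadjusted p under 0.05 in edgeR, 0 by DESeq2). Ung, uracil-DNA glycosylase, averaged 10.7 CPM in NRG1 and 69.6 CPM in PBS libraries of Lgr5high (log2 -2.69 ± 0.170, adjusted p = 1.70e-06), and Mcm6, a subunit of the replicative helicase, 50.5 and 112 CPM (-1.14 ± 0.129, 1.83e-04). In Lgr5med Ung (log2 -2.13 ± 0.174) and Uhrf1, a maintenance methylation cofactor (-0.99 ± 0.143), had the lowest adjusted p, and in Lgr5low Ung alone was called (-1.34 ± 0.181, adjusted p = 0.0153). The Lgr5med count was 4 to 5 of 36 without Lgr5med NRG1 mouse 2 or any 1 of the 3 Lgr5med PBS mice, 4 among the 15-week-old mice and 14 with DESeq2 or without the low-count filter, and the Lgr5low count was 0 without Lgr5low NRG1 mouse 2, PBS mouse 1 or PBS mouse 2.

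Of 30 G2/M genes, the class held silent by the DREAM complex in resting cells, 28 were called higher and 0 lower in Lgr5high (median log2 change 0.85), 12 and 0 in Lgr5med (0.42) and 0 in Lgr5low by edgeR (0.34; 7 higher with the block, 15 at an unadjusted p under 0.05, 3 by DESeq2). Of the 29 tested in Lgr5neg 0 were called (0.63; 5 higher with the block, 8 at an unadjusted p under 0.05, 2 by DESeq2). Cdc20, the activator of the anaphase-promoting complex, averaged 63.4 CPM in NRG1 and 25.3 CPM in PBS libraries of Lgr5high (log2 1.34 ± 0.140, adjusted p = 9.09e-05), and Cenpa, the centromeric histone, 68.4 and 29.1 CPM (1.25 ± 0.129, 9.09e-05). In Lgr5med Cenpa (log2 0.92 ± 0.123) and Hmmr, a spindle protein (0.65 ± 0.117), had the lowest adjusted p; the count there was 5 without Lgr5med PBS mouse 2 and with all 24 libraries in 1 model, and 3 without Lgr5med PBS mouse 3 and among the 15-week-old mice. Mki67 averaged 1488 ± 216 CPM in NRG1 and 916 ± 67.2 CPM in PBS libraries of Lgr5high (SD, n = 3 each). No member of the E2F and RB family was called higher in these gates.

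**Figure D4:**
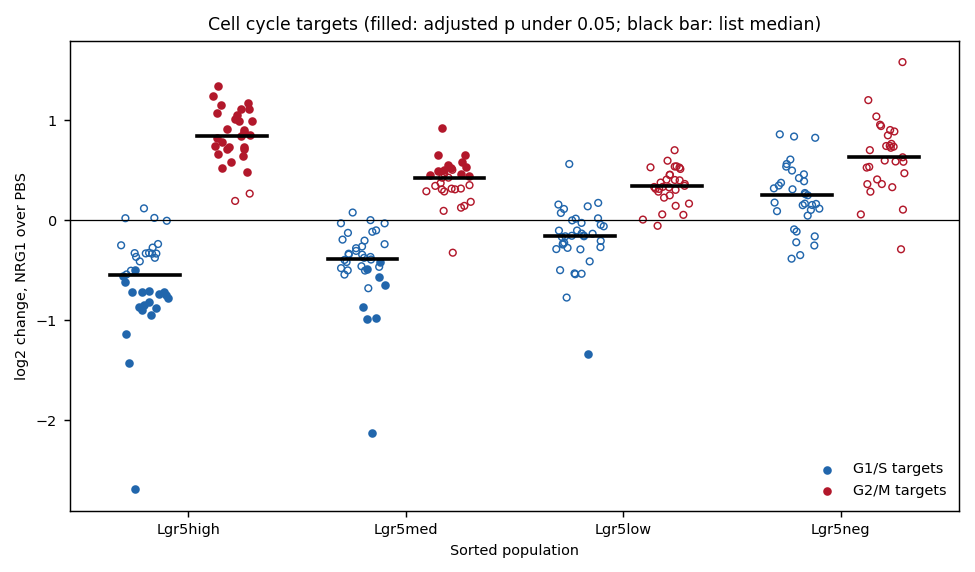
Log2 change, NRG1 over PBS (vertical axis), of G1/S targets (blue, left of each pair) and G2/M targets (red, right) in the 4 gates (horizontal axis); each point is 1 gene, filled where adjusted p was under 0.05, and black bars are list medians. The lists lie apart in Lgr5high, at medians of -0.55 and 0.85.

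For the 6 members whose 8 group means spanned at least 2 log2 units, the genes with the most similar course were found among 9832 candidates, by the root mean square difference of centred log2 means over the 8 groups. Nearest to E2f1 were Rmi2, Uhrf1 and Ung, at 0.35, 0.38 and 0.39 against a median of 1.80 over all candidates, and Uhrf1 and Ung are on the G1/S list. Nearest to E2f7 were Clspn, Rad51c and Mcm5 (0.22 to 0.30), and to E2f8 Chtf18, Kcnn4 and Hist1h3g (0.14 to 0.16). E2f2 had Syna, S100a16 and Hspa5 as its nearest (0.26 to 0.34), E2f6 Rbbp7, Ncbp2 and Yeats2 (0.08 to 0.10), and Rb1 Atp6v0d1, Naip6 and Arhgef3 (0.09 to 0.11). E2f1 and E2f2, both called lower under NRG1 in Lgr5high and Lgr5med, thus had no nearest gene in common. The spans of E2f7 and E2f1, at 5.94 and 5.22 log2 units, were set by Lgr5neg groups of 1 to 10 counts per library, around the floor of 3 counts, so their size and order depend on the prior count. The narrowest were E2f5 at 0.60 and E2f4 at 0.67.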

How the data were processed

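The deposited table held raw read counts per gene symbol for 24 libraries, made by the authors with STAR and featureCounts on GRCm38, per the submitters' processing notes; versions, annotation release and strand setting are not given in the sources used here. Single-end reads of 76 nt came from amplified cDNA of 15 ng RNA, per the labels' protocols. Genes were filtered (filterByExpr, minimum count 10, minimum total 15), scaled by TMM and tested with edgeR 4.0.16 quasi-likelihood fits (R 4.3.3), Benjamini-Hochberg adjusted over all tested genes, and called at an adjusted p under 0.05. NRG1 was compared with PBS over the 6 libraries of a gate, gates over the 12 PBS libraries, and responses over all 24 libraries; levels used a prior count of 2 on the log2 scale. DESeq2 1.42.0, RLE scaling, no filter, no mitochondrial rRNA, a replicate block, 15-week-old mice only, 1 model of all libraries and leave-one-out were alternatives. The fits were tested on simulated data. Members and lists were chosen with earlier results of these data known. All 10 members are named; from each list, the 2 called genes with the lowest adjusted p in each direction are named for each NRG1 comparison. Libraries of the same number deviated together (r over 0.1) across treatments in 12 of 12 pairs (r 0.106 to 0.418). Gates of the same mouse, which share the animal, did so in 27 of 36 pairs (r -0.155 to 0.562). The main tests did not use this pairing, so gates of 1 mouse entered them as independent libraries. The replicate block among the alternatives used it. Replicate libraries differed beyond counting noise in all 24 pairs, so none was merged. Exon lengths came from a GENCODE annotation of GRCm38.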

Additional observations from a re-analysis of the deposited data

How the results depend on the processing

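The calls of E2f1, E2f2 and E2f3 in Lgr5high and of E2f1 and E2f2 in Lgr5med held under all 13 alternatives run, and no result reversed. Genes called for NRG1 numbered 976 in Lgr5high, 1279 in Lgr5med, 59 in Lgr5low and 39 in Lgr5neg, and for the responses Lgr5high minus Lgr5med, Lgr5low and Lgr5neg 0, 0 and 8. With the replicate block they were 2333 in Lgr5med, 573 in Lgr5low, 839 in Lgr5neg, and 1 and 65 for Lgr5high minus Lgr5low and Lgr5neg, with 3 members in Lgr5low; beside the results named above it changed no other member's call. DESeq2 called 306 in Lgr5low, 197 in Lgr5neg and 47 for Lgr5high minus Lgr5neg, with 2, 0 and 1 members. Without the low-count filter, 497 were called in Lgr5low, 272 in Lgr5neg and 17, 35 and 150 for the 3 responses, with 3 members in Lgr5low and 2 for Lgr5high minus Lgr5neg. All 24 libraries in 1 model gave 480 in Lgr5high, 129 in Lgr5low (1 member) and 306 in Lgr5neg. The 15-week-old mice alone gave 425 in Lgr5med, 11 in Lgr5low, 0 in Lgr5neg, 2 for Lgr5high minus Lgr5neg, 99 for Lgr5high against Lgr5med in PBS (main 1301) and 307 for Lgr5med against Lgr5low (main 1078), with 1 member in each of these last comparisons; fewer samples entered. The cause of the other shifts was not tested. Leaving out 1 library gave 491 to 1185 genes in Lgr5high, 422 to 1118 in Lgr5med, 1 to 72 in Lgr5low, 0 to 90 in Lgr5neg, 634 to 1454 for Lgr5high against Lgr5med, 464 to 1241 for Lgr5med against Lgr5low and 1 to 18 for Lgr5high minus Lgr5neg. Members called then numbered 0 to 1 in Lgr5low, 2 to 4 in Lgr5med and 1 to 2 for Lgr5med against Lgr5low. E2f1 and E2f7, at 1 to 16 counts per Lgr5neg library, did not pass the filter of the Lgr5neg comparison and were tested with those libraries in the response fits.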
